A study of Caenorhabditis elegans with 18 samples.

Results

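Among the RNAs most frequently bound by the PUF proteins FBF-1 and FBF-2 in both spermatogenic and oogenic germlines of Caenorhabditis elegans were 158 genes that the deposited table lists only under clone names such as T07A9.14. They were chosen from 13814 clone-named genes, among 26709 genes in all, by their measured binding. The mean over the 6 FBF libraries of each germline, with 1 added, had to be at least 100 reads per 1000000 counts on genes (RPM) and at least 4 times the mean of the 3 controls of that germline, and the means of the germlines had to lie within 4-fold of each other. Because these values chose the genes, binding over control and binding between germlines are described here without a test. The comparison of FBF-1 with FBF-2 was not used in the choice and was tested. The clone name is that of the table: 157 of the 158 genes were found in a current annotation, where 53 now carry a gene symbol and 104 are still known by the clone name.

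FBF-1 and FBF-2 are nearly identical RNA-binding proteins of the PUF family, which bind short elements in the 3′ untranslated regions of mRNAs and most often lower their stability or translation. Either protein is enough to maintain the germline stem cells, and both also act in the choice between sperm and oocyte. A clone name is the sequence name of a predicted gene on the cosmid or artificial chromosome it was found on. A gene under such a name was given no genetic or family name in the annotation used for the table.

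The iCLIP data, in which RNA fragments cross-linked to a protein by UV light are purified with it and sequenced, comprised 18 libraries of early adult XX hermaphrodites raised at 25°. Spermatogenic animals carried fem-3(gf), a temperature-sensitive gain-of-function allele (q22) that turns the whole germline to sperm, together with either a single-copy 3xFLAG::FBF-1 transgene in place of deleted fbf-1 or a 3xFLAG::FBF-2 transgene in place of deleted fbf-2. Oogenic animals carried the same transgenes and deletions without fem-3(gf). There were 3 biological replicates for each protein in each germline, and 3 controls per germline made without the FLAG antibody. No control shared a lane with the FBF libraries of its own germline. For spermatogenic animals the controls were in lane 3 and the FBF libraries in lane 1. For oogenic animals the controls were in lane 1 and the FBF libraries in lane 2. Lane and binding over control therefore cannot be told apart in either germline. Whole animals were lysed, so all libraries include somatic RNA, and since FBF-1 and FBF-2 were tagged in separate strains, protein and strain cannot be told apart. No input RNA was measured, so a count reflects how abundant an RNA was as well as how often it was bound.

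FBF libraries held 525318 to 1209193 counts on genes in spermatogenic and 18749 to 1833483 in oogenic germlines, against 59621 to 145625 in spermatogenic and 139129 to 283777 in oogenic controls. The smallest, FBF-1 oogenic replicate 1, gave the clone-named RNAs a median of 3 counts each, and 8 of them had none there. A single read in it is worth 53.3 RPM. Intervals and limits set by such counts cover counting error only. Marker genes went with the labels. The sum of 11 sperm genes was 1083 to 1394 RPM in spermatogenic and 0 to 92.7 RPM in oogenic FBF libraries. That of 12 oocyte genes was 2661 to 3809 RPM in spermatogenic and 4618 to 12093 RPM in oogenic FBF libraries. These sums also reflect binding, since the sperm genes include the FBF target fog-3, with 669 RPM in spermatogenic FBF libraries. In the controls the sperm genes summed to 487 to 604 RPM in spermatogenic and 14.4 to 35.4 RPM in oogenic germlines. The oocyte genes summed there to 419 to 505 RPM and 2224 to 2518 RPM. Muscle, yolk and cuticle genes were present in every library, with a summed yolk gene level of 6456 to 12260 RPM in all FBF libraries and 15519 to 16418 RPM in all controls. rRNA took 12.6% to 16.3% of the counts in spermatogenic and 14.01% to 39.3% in oogenic FBF libraries, against 32.2% to 34.9% and 45.8% to 50.6% in the spermatogenic and oogenic controls. Library totals without rRNA, tRNA and mitochondrial genes gave 128 genes under the same limits, of which 107 were among the 158.

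The 158 RNAs together took 4.17% to 4.97% of the counts in each spermatogenic FBF library and 2.70% to 4.95% in each oogenic FBF library, against 0.339% to 0.455% and 0.417% to 0.497% in the controls. Their mean FBF binding ran between 105 and 1162 RPM in spermatogenic germlines, with a median of 241 RPM, and the control means between 0 and 77.9 RPM, with a median of 20.4. In oogenic germlines FBF binding was between 99.6 and 953 RPM with a median of 191 RPM, and the controls between 1.17 and 98.4 RPM with a median of 27.1. The median ratio to the control, with 1 added, was 11.5 in spermatogenic and 7.37 in oogenic germlines. The limit of 4 times the control was met by 9.76% of all genes in spermatogenic and 4.68% in oogenic germlines, and in both by 27.6% of the 1754 genes at 100 RPM or more. In spermatogenic germlines every FBF library lay above every control for all 158 RNAs. In oogenic germlines this held for 147, and for all 158 without the small FBF-1 library. Both germlines together gave this separation for 48.2% of the 1754 genes at 100 RPM or more.

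The other 325 genes that met the same limits have genetic or family names, and they include 12 of 15 established FBF targets taken from the study's text. Their median binding was 286 RPM in spermatogenic and 251 RPM in oogenic germlines, with median ratios of 9.86 and 6.40 to the controls. The established targets that passed had a median of 418 RPM over the 12 FBF libraries, and 15 clone-named RNAs lay above it. The lowest of these targets was fem-3, the sex-determination mRNA after which FBF is named, with 139 RPM over the same libraries, and 143 of the 158 were above it. The highest, gld-1, which encodes a regulator of meiotic entry and oocyte differentiation, was well above any clone-named RNA. It stood at 4044 RPM in spermatogenic and 8024 RPM in oogenic germlines. Some of these targets were altered in the animals used. In spermatogenic animals fem-3 carried the q22 change, which lies near an FBF binding element of its 3′ untranslated region. fem-3 had 109 RPM in those animals and 169 RPM in oogenic ones. The passing targets fbf-1 and fbf-2 were each deleted and replaced by a transgene in the strains that tag them.

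**Figure D1:**
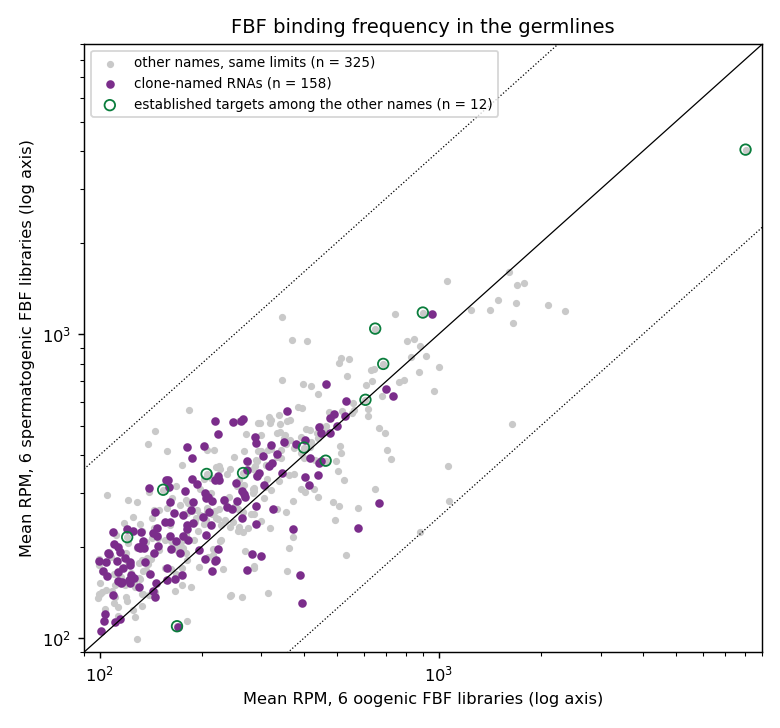
Mean RPM over the 6 spermatogenic FBF libraries (vertical, log axis) against the 6 oogenic FBF libraries (horizontal, log axis) for the 158 clone-named RNAs, for 325 other genes within the same limits and, ringed, for 12 established targets among these. The solid line marks equal binding and the dotted lines the 4-fold limit; the clone-named RNAs lie among the others, and T07A9.14 stands apart from the rest of them at 1162 and 953 RPM.

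T07A9.14, the most frequently bound of the 158, is a short protein-coding gene on chromosome IV (386699 to 387949, plus strand, WBcel235). It had 1217, 1325 and 1081.71 RPM with FBF-1 and 1154, 1015 and 1182 RPM with FBF-2 in spermatogenic germlines, against 64.3, 50.3 and 89.3 RPM in the controls. In oogenic germlines it had 800, 1399 and 1171 RPM with FBF-1 and 926, 663 and 759 RPM with FBF-2, against 56.6, 74.0 and 79.1 RPM in the controls. For comparison, htp-1, an established target that encodes an axis protein of meiotic chromosomes, stood at 1178 RPM in spermatogenic and 897 RPM in oogenic FBF libraries. The next in order, T19H12.2 on chromosome V, averaged 625 ± 81.1 RPM in spermatogenic and 734 ± 170 RPM in oogenic FBF libraries (SD, n = 6 each), and C41G7.3, now mina-1, 660 and 699 RPM. The ranges of these last RNAs overlapped.

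D1081.7 and C44E4.4 were also among the 12 with the highest means. D1081.7 is now lotr-1 and encodes a LOTUS and Tudor domain protein of germ granules, the perinuclear bodies in which germ cells sort RNA. It had 504, 556 and 552 RPM with FBF-1 and 708, 641 and 648 RPM with FBF-2 in spermatogenic germlines, against 36.7, 33.5 and 82.4 RPM in the controls. Its oogenic values were 427, 715 and 591 RPM with FBF-1 and 542, 382 and 539 RPM with FBF-2, against 63.7, 56.4 and 64.7 RPM. C44E4.4, now ssb-1, encodes the worm homolog of La, a protein that binds the ends of new RNA polymerase III transcripts; its values follow with the comparison of the proteins. The other 7 of the 12 were T13F2.6, Y73B6BL.23, Y57A10A.31, C23G10.7, ZK616.5, T24D1.3 and C25A1.16, at means of 469 to 576 RPM over the 12 FBF libraries. Among these, T13F2.6 and C25A1.16 overlap exons of another gene, sre-4 and nola-3. In all, 47 of the 158 overlap another gene, 39 of them on the opposite strand. Reads that could not be given to a single gene were set aside as ambiguous, and the strand setting of the counting is not given in the sources used here, so the counts of these 47 are uncertain.

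**Figure D2:**
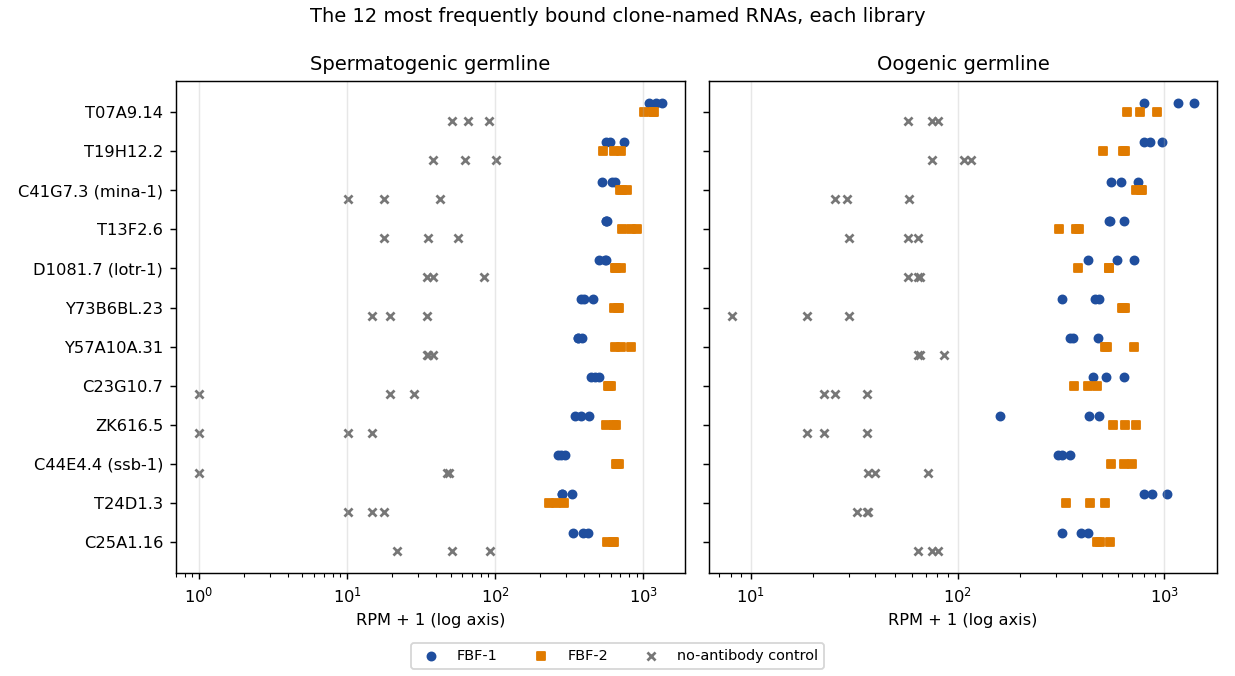
RPM plus 1 (log axis) of the 12 clone-named RNAs with the highest means, in each of 3 FBF-1, 3 FBF-2 and 3 control libraries of spermatogenic (left) and oogenic (right) germlines. All FBF points stand to the right of all control points; T07A9.14 is the highest in spermatogenic germlines, and the lone low FBF-1 point of ZK616.5 (160 RPM) is from the small oogenic library.

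Replicates of the 158 RNAs were tight where libraries were deep. The median coefficient of variation over 3 libraries was 8.25% for FBF-1 and 8.03% for FBF-2 in spermatogenic germlines, and 26.2% for FBF-1 and 17.05% for FBF-2 in oogenic germlines. Between the larger pair of oogenic FBF-1 libraries it was 6.003%. Control values were few counts each: summed over 3 libraries, the median RNA had 6.5 counts in spermatogenic and 15 in oogenic controls. Y18D10A.11 and Y62E10A.14, now memi-2, had none in the spermatogenic controls. Against the limit that 0 counts allow over the group, 9.55 RPM, Y18D10A.11 was at least 19.8-fold higher at a mean of 189 RPM. By the same limit memi-2 was at least 17.5-fold higher at 167 RPM, both in spermatogenic FBF libraries. In oogenic germlines Y18D10A.11 had 282 RPM against 56.7 RPM in the controls, and memi-2 273 against 21.3 RPM.

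Some genes met the limits narrowly. T26A5.2, at 99.6 RPM in oogenic germlines before 1 was added, and T01D3.5 (zipt-9), at 101 RPM, were just inside the minimum, and C46A5.5 (dsb-3), at 98.9 RPM, and B0205.8, at 98.6 RPM, just outside. T12G3.7 (tgn-38), at 4.01 times the oogenic control, and T04C9.1, at 4.02 times, were just inside the control limit. Y55F3BR.1 and C44B7.12 (adal-1), both at 3.99, were just outside. No clone-named gene was kept out by the 4-fold limit between germlines alone.

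Some of the 53 RNAs that now have a symbol were read by role, in groups set up from the symbols after the counts were known. The rest were not grouped, and they include RNAs called between FBF-1 and FBF-2, such as citk-2 (F59A6.5) and lmbr-1 (R05D3.2) in oogenic germlines. Calls between FBF-1 and FBF-2 in these groups, by the test described with that comparison, are to be read against 5.72% of all RNAs tested in spermatogenic and 8.06% in oogenic germlines, at which groups of so few genes would hold at most about 1 call. For the 6 genes of germ granules and small RNA pathways, FBF binding was 155 to 601 RPM in spermatogenic and 113 to 533 RPM in oogenic germlines. They are lotr-1; mip-1 (C38D4.4), which encodes another LOTUS protein of the granules; pid-2, pid-4 and pid-5 (Y48G1C.1, W03G9.2 and Y45G5AM.2), needed for silencing by piRNAs; and nyn-2 (Y87G2A.7), of a ribonuclease family. For pid-2 the means were 180 RPM in spermatogenic FBF libraries against 5.35 RPM in controls, and 113 against 17.7 RPM in oogenic germlines. For pid-4 they were 263 against 21.9 RPM and 186 against 16.6 RPM. None of the 6 was called between FBF-1 and FBF-2 in either germline, a number near that background.

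Meiosis, gametes and the centriole accounted for 7 RNAs. Here syp-6 (F57B10.4), for a protein of the synaptonemal complex that joins paired chromosomes, had the highest ratio of spermatogenic to oogenic binding of all 158, with 518 and 219 RPM, against 19.1 and 28.3 RPM in the controls. rec-1 (Y18H1A.7), which shapes where crossovers form, had 231 and 147 RPM, and mjl-1 (C17E4.4), which ties chromosome ends to the nuclear envelope, 254 and 176 RPM. The related memi-1 and memi-2 (Y17G9B.9 and Y62E10A.14), which act at the passage from meiosis to mitosis in the fertilised egg, were higher in oogenic germlines, with 228 and 167 RPM in spermatogenic and 371 and 273 RPM in oogenic libraries. Reads that mapped to more than 1 place were removed, so reads these relatives share are not counted. The centriole gene sas-7 (T07C4.10) had 191 and 106 RPM, and oops-1 (C31H1.8), which encodes an egg activation factor, 156 and 167 RPM. Of the 7, 2 (syp-6 and rec-1) were called between the proteins in spermatogenic germlines and 1 (rec-1) in oogenic ones, all lower with FBF-1. The spermatogenic count is above the about 1 call given for such groups, but rests on too few genes to be read as a trait of the group.

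DNA replication and telomeres gave 3 RNAs. pole-1 (F33H2.5), the catalytic subunit of DNA polymerase epsilon, had 324 RPM in spermatogenic and 252 RPM in oogenic FBF libraries. ctf-4 (F17C11.10), a scaffold of the replication fork, had 265 and 324 RPM, and tebp-2 (T12E12.3), which binds double-stranded telomere DNA, 290 and 207 RPM. None of the 3 was called between FBF-1 and FBF-2, which for so few genes is near the background.

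RNA processing and transcription gave 7 RNAs, at 113 to 473 RPM in spermatogenic and 111 to 477 RPM in oogenic germlines. After ssb-1, the highest were snu-13 (M28.5), a protein of the spliceosome and of snoRNPs, with 435 and 379 RPM, tif-1A (C36E8.1), an initiation factor of RNA polymerase I, with 358 and 272 RPM, and cmtr-1 (Y53F4B.13), an mRNA cap methyltransferase, with 341 and 223 RPM. The group also holds Y75B8A.25, which has the symbol glel-1 in RefSeq, with 191.5 and 115.1 RPM. In this group, 1 RNA (ssb-1) was called between the proteins, in both germlines, which for so few genes is near the background. A further 7 RNAs encode transporters or act in making membrane anchors. Among them were the zinc transporter gene zipt-1 (F31C3.4), with 314 and 161 RPM, the amino acid transporter gene slc-36.1 (Y43F4B.7), with 209 and 168 RPM, and pgap-3 (R01B10.4), of the glycosylphosphatidylinositol anchor pathway, with 390 and 188 RPM. None of the 7 was called between FBF-1 and FBF-2, which for so few genes is again near the background.

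By the annotation 153 of the matched genes are protein coding, 2 are noncoding RNAs and 2 are pseudogenes. The noncoding C06A1.12, a gene of 190 exonic bases on chromosome II, had 338 RPM in spermatogenic and 403 RPM in oogenic FBF libraries, against 16.1 and 33.04 RPM in the controls. Per kilobase of exon it was the highest of all 157 matched genes, at 1779 and 2119 RPM per kilobase. C06A1.12 and the pseudogene C06A1.4 are both on the minus strand, and the start of C06A1.12 lies within 2 bases of the end of C06A1.4. The pseudogene had 216 and 148 RPM. The noncoding Y67D8A.10, which overlaps slmp-1, had 182 and 205 RPM, and the pseudogene K11H3.4 had 210 and 182 RPM. Y10G11A.90, which was not found in the annotation, had 474 and 449 RPM, against 25.7 and 18.9 RPM in the controls.

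The clone-named genes had a median exonic length of 1484 bases, against 2062 bases for the 314 matched genes with other names. Their median coding length was 1185 bases against 1706, and that of the longest annotated 3′ untranslated region 257 bases (n = 153) against 276 (n = 310). Per kilobase of exon, the median binding was 166 RPM in spermatogenic and 127 RPM in oogenic germlines, against 144 and 118.7 RPM for the genes with other names. Reads gather at binding elements, so they need not grow with exon length. The 158 were scattered in the genome, and only 3 pairs lay within 5000 bases of each other (Y14H12B.2 and Y14H12B.1, C06A1.12 and C06A1.4, Y54G2A.75 and Y54G2A.19).

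None of the 157 matched genes is on the X chromosome, which is largely silent in the germline through much of its development. Chromosome I held 47, II 38, III 24, IV 29 and V 19. Among the genes with other names within the same limits, 1 of 314 is on X (0.318%). Of the clone-named genes averaging 20 counts or more in the 12 FBF libraries, 132 of 2178 are (6.06%), and of all clone-named genes 2339 of 13601 (17.2%). At 100 RPM or more in both germlines, without regard to the controls, the share was 69 of 1661 (4.15%). These shares are given as counts without a test, since binding chose the genes.

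**Figure D3:**
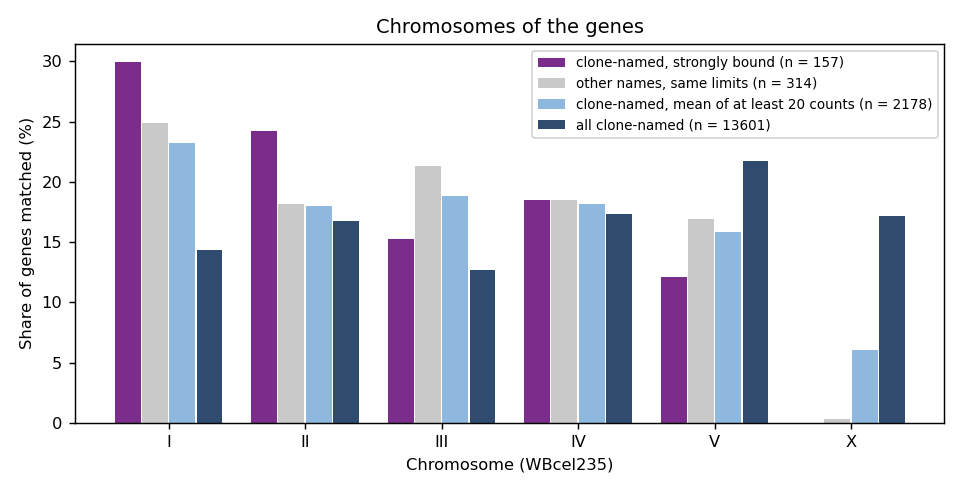
Share of matched genes on each chromosome (bars, % of each set) for the 157 strongly bound clone-named genes, 314 genes with other names within the same limits, 2178 clone-named genes averaging 20 counts or more, and all 13601 clone-named genes. The strongly bound clone-named genes have no bar on X, where 17.2% of all clone-named genes lie.

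Between the germlines, most of the 158 differed little. The ratio of spermatogenic to oogenic FBF binding had a median of 1.26 and ran between 0.333 and 2.36. It was above 1 for 124 RNAs and below 1 for 34, and 144 were within 2-fold. Of the 1754 genes at 100 RPM or more in both germlines, 73.7% were above 1. This split depends on the library totals, of which rRNA took more in most oogenic libraries. With totals free of rRNA, tRNA and mitochondrial genes, an alternative chosen after the data were seen, the median was 1.03, and 88 RNAs were above 1, 70 below and 153 within 2-fold. Every spermatogenic FBF library was above every oogenic one for 13 RNAs, against 9.24% of the 1754 genes, and the reverse was seen for 3, against 2.39%. The 3 were T24D1.3, F32D1.7 and C01G8.1. Of the 325 genes with other names, 35 and 8 were separated in these ways. With the totals free of rRNA, tRNA and mitochondrial genes the clone-named RNAs numbered 5 and 8. T24D1.3 had 228 to 327 RPM, with a median of 282, in the 6 spermatogenic FBF libraries and 334 to 1031 RPM, with a median of 657, in the 6 oogenic ones. C01G8.1 was the most oogenic, with means of 131 and 396 RPM, and its controls moved the same way, with 15.5 and 80.7 RPM. F32D1.7 had 231 and 576 RPM, against 34.1 and 41.3 RPM in the controls. At the other end, syp-6 was followed by gcsh-2 (F52A8.5), with 427 and 181 RPM, and Y71H2B.2, with 312 and 140 RPM. All spermatogenic FBF libraries came from lane 1 and all oogenic ones from lane 2, so lane and germline cannot be told apart. In these whole-animal samples, fewer cells of a type and less RNA per cell cannot be told apart either.

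FBF-1 and FBF-2 were then compared within each germline, where both were sequenced in the same lane. The test was edgeR's, by quasi-likelihood after TMM scaling, on every RNA that averaged 20 counts or more in the 6 libraries. A call required an adjusted p (Benjamini-Hochberg) under 0.01 and a change over 2-fold. Adjustment was over all RNAs tested, and all 158 passed the count minimum in both germlines. Fold changes below are FBF-1 over FBF-2 on the log2 scale. The median over the 158 was -0.13 in spermatogenic and 0.13 in oogenic germlines, against 0.01 over all RNAs tested in either.

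In spermatogenic germlines 11 of the 158 (6.96%) were called, 1 higher and 10 lower with FBF-1, while of all 6203 RNAs tested 5.72% were called, 4% higher and 1.72% lower. The 325 genes with other names gave 6 higher and 14 lower. In 104 of the 158 the FBF-1 and FBF-2 libraries did not overlap, a larger share than the 42.3% of all RNAs tested. Many of the latter had far fewer counts. The RNA that was higher with FBF-1 was Y45G12B.2, with 358, 385 and 331 RPM with FBF-1 and 174, 169 and 144 RPM with FBF-2, a change of 1.09 ± 0.12 (SE, adjusted p = 1.6e-08). It overlaps Y45G12B.3. The lowest with FBF-1 was C15C8.7, with 193, 238 and 224 RPM against 612, 504 and 490.5 RPM with FBF-2, a change of -1.34 ± 0.13 (adjusted p = 5.9e-10). It overlaps hrg-7. C44E4.4 (ssb-1, -1.30), T22F3.2 (-1.29), T20F5.7 (-1.20) and C14C11.7 (-1.16) came next, and syp-6 was also lower with FBF-1, at -1.12. The summed yolk genes were 10158 to 12260 RPM in FBF-1 and 6456 to 8645 RPM in FBF-2 libraries of these animals; their part in the result was not tested.

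In oogenic germlines 24 of the 158 (15.2%) were called, 15 higher and 9 lower with FBF-1, while of all 4737 RNAs tested 8.06% were called, 3.95% higher and 4.12% lower. The genes with other names gave 22 higher and 12 lower. For 82 of the 158, FBF-1 and FBF-2 libraries did not overlap, a larger share than the 30.9% of all RNAs tested, many with far fewer counts. The split depends on the scaling. With library-size scaling the median over all RNAs tested was 0.52, and 43 of the 158 were higher and 0 lower, against 18.5% and 1.25% of all RNAs, although 9 were lower under TMM. rRNA took 39.3%, 17.7% and 14.01% of the counts in the FBF-1 libraries and 31.2%, 36.6% and 33.8% in the FBF-2 libraries, and 12 oocyte genes summed to 7787 to 12093 RPM with FBF-1 and 4618 to 6064 RPM with FBF-2. Their part in the result was not tested. Without rRNA, tRNA and mitochondrial genes 20 were called, 11 higher and 9 lower. The share over all RNAs tested is not given for that setting, where the median was 0.09 over the 158 and -0.01 over all RNAs. DESeq2 called 11, 7 higher and 4 lower, against 0.591% and 1.88% of all RNAs.

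The largest rise was in F41G3.6 on chromosome II (6742914 to 6744267, plus strand), with 373, 620 and 514 RPM with FBF-1 and 94.0, 83.4 and 116 RPM with FBF-2, against 56.6, 10.6 and 21.6 RPM in the oogenic controls. This was a change of 1.98 ± 0.17 (adjusted p = 1.2e-27). W06B4.1, also on chromosome II, had 587, 693 and 665 RPM with FBF-1 and 149, 96.6 and 156 RPM with FBF-2, a change of 1.77 ± 0.16 (adjusted p = 1.3e-24). In both genes all FBF-1 libraries, the small one included, lay far above all FBF-2 libraries. C29A12.1 (1.52), which overlaps C29A12.22, F11A10.5 (1.32) and the pseudogene K11H3.4 (1.31) followed. Under library-size scaling, where the median of all RNAs tested also moved up, F41G3.6 was at 2.47 and W06B4.1 at 2.27. The largest falls were in ssb-1 (-1.46), rec-1 (-1.25), Y57A10A.31 (-1.23), F13D12.5 (-1.18) and T22F3.2 (-1.17), and none of these remained called under library-size scaling, where they lay between -0.95 and -0.66.

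ssb-1, rec-1, Y57A10A.31, T22F3.2 and T20F5.7 were lower with FBF-1 in both germlines, which is 50% of the 10 called lower in spermatogenic and 55.6% of the 9 in oogenic germlines. Over all RNAs tested, 14 were lower in both, or 13.1% of 107 and 7.18% of 195. With DESeq2 the clone-named RNAs lower in both were 2, and with library-size scaling 0. ssb-1 had 265, 276 and 295 RPM with FBF-1 and 667, 650 and 685 RPM with FBF-2 in spermatogenic germlines, against 45.9, 0 and 48.1 RPM in the controls. Its oogenic values were 320, 350 and 306 RPM with FBF-1 and 697, 637 and 553 RPM with FBF-2, against 70.7, 38.8 and 35.9 RPM. The proteins were thus apart in both germlines, with adjusted p = 3.4e-10 and 1.0e-19. Y57A10A.31 had 361, 383 and 360 RPM with FBF-1 and 820, 641 and 706 RPM with FBF-2 in spermatogenic germlines, a change of -1.02 that fell short of 2-fold without any of FBF-1 replicate 1 (-0.997), FBF-1 replicate 3 (-0.96) or FBF-2 replicate 1 (-0.92), with library-size scaling (-0.97) and with thinned libraries (-0.94). rec-1, which overlaps pif-1, and T20F5.7 had 0 counts in the small oogenic FBF-1 library, but kept their oogenic calls without it. T22F3.2, which overlaps T22F3.12, had 127, 105 and 136 RPM with FBF-1 and 276, 320 and 289 RPM with FBF-2 in spermatogenic germlines, and 53.3, 107 and 118.9 RPM against 170, 154 and 204 RPM in oogenic germlines.

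Across the 158 RNAs, the FBF-1 to FBF-2 ratio of spermatogenic germlines followed that of oogenic germlines, with Pearson's r = 0.82 and Spearman's rho = 0.83. The comparisons share no library, but the points share strains' construction and barcodes, and RNAs are not independent replicates, so this is a description. For the genes with other names r was 0.79 (n = 325), and over all RNAs tested in both germlines, many with far fewer counts, 0.38 (n = 4609). In the alternatives only the oogenic fit was changed, and the spermatogenic ratios stayed those of the main fit. The value for the clone-named RNAs was then 0.82 under library-size scaling, DESeq2 or without the small library. With oogenic libraries thinned to one total it was 0.78 (n = 157). A change of scaling moves the oogenic ratios nearly alike, so it could hardly change r.

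**Figure D4:**
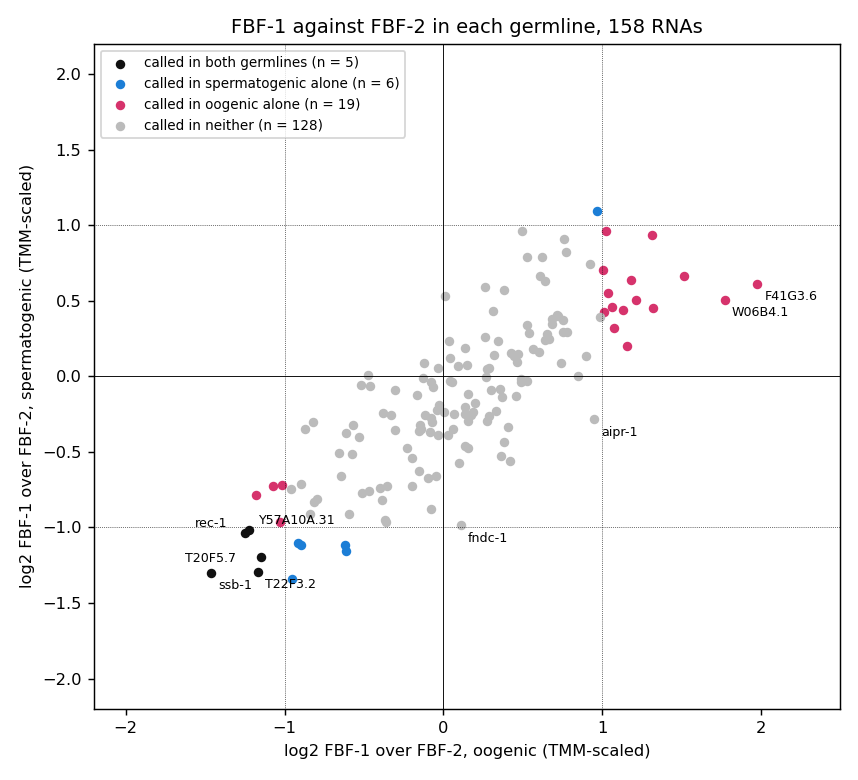
log2 of FBF-1 over FBF-2 in spermatogenic (vertical) against oogenic (horizontal) germlines for the 158 clone-named RNAs, TMM-scaled, with dotted lines at a 2-fold change. Black points (n = 5), all at lower left, were called in both germlines; F41G3.6 and W06B4.1 lie far to the right, at 1.98 and 1.77 in oogenic germlines.

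The difference between germlines in the FBF-1 to FBF-2 ratio was tested as an interaction, spermatogenic minus oogenic, over 5489 RNAs. Of the 158, 4 were called (2.53%), all lower, against 3.99% of all RNAs tested, 2.77% higher and 1.22% lower. They were F41G3.6 (-1.35 ± 0.22, adjusted p = 4.5e-06), W06B4.1 (-1.25 ± 0.21, adjusted p = 1.2e-05), C56C10.10 (aipr-1, -1.22 ± 0.21, adjusted p = 1.8e-05) and T06D8.7 (fndc-1, -1.08 ± 0.21, adjusted p = 9.0e-05). The median over the 158 was -0.27, against -0.05 over all RNAs tested. F41G3.6 had 214, 213 and 252 RPM with FBF-1 and 169, 145 and 124 RPM with FBF-2 in spermatogenic germlines, so that FBF-1 stood above FBF-2 in both germlines, by more in oogenic ones. The same held for W06B4.1, with 176, 198 and 197 RPM with FBF-1 and 150, 109 and 134 RPM with FBF-2.

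fndc-1, which encodes a FUN14 domain protein that acts in the removal of mitochondria, had 169, 198 and 170 RPM with FBF-1 and 362, 313 and 347 RPM with FBF-2 in spermatogenic germlines, against 320, 253 and 228 RPM and 190, 149 and 125 RPM in oogenic germlines. The RPM order of the proteins thus turned between the germlines, although on the TMM scale the oogenic change was only 0.11 ± 0.16. The call for fndc-1 was lost without oogenic FBF-1 replicate 2 (-0.98) or oogenic FBF-2 replicate 3 (-0.92), and with DESeq2. aipr-1 had 139, 152 and 151 RPM with FBF-1 and 181, 170 and 171 RPM with FBF-2 in spermatogenic germlines, against 267, 242 and 273 RPM and 114, 57.1 and 95.2 RPM in oogenic germlines. Library-size scaling called 35 of the 158, all lower, against 1.28% of all RNAs called higher and 12% called lower. On that scale the median was -0.74 over the 158 and -0.53 over all RNAs tested.

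**Figure D5:**
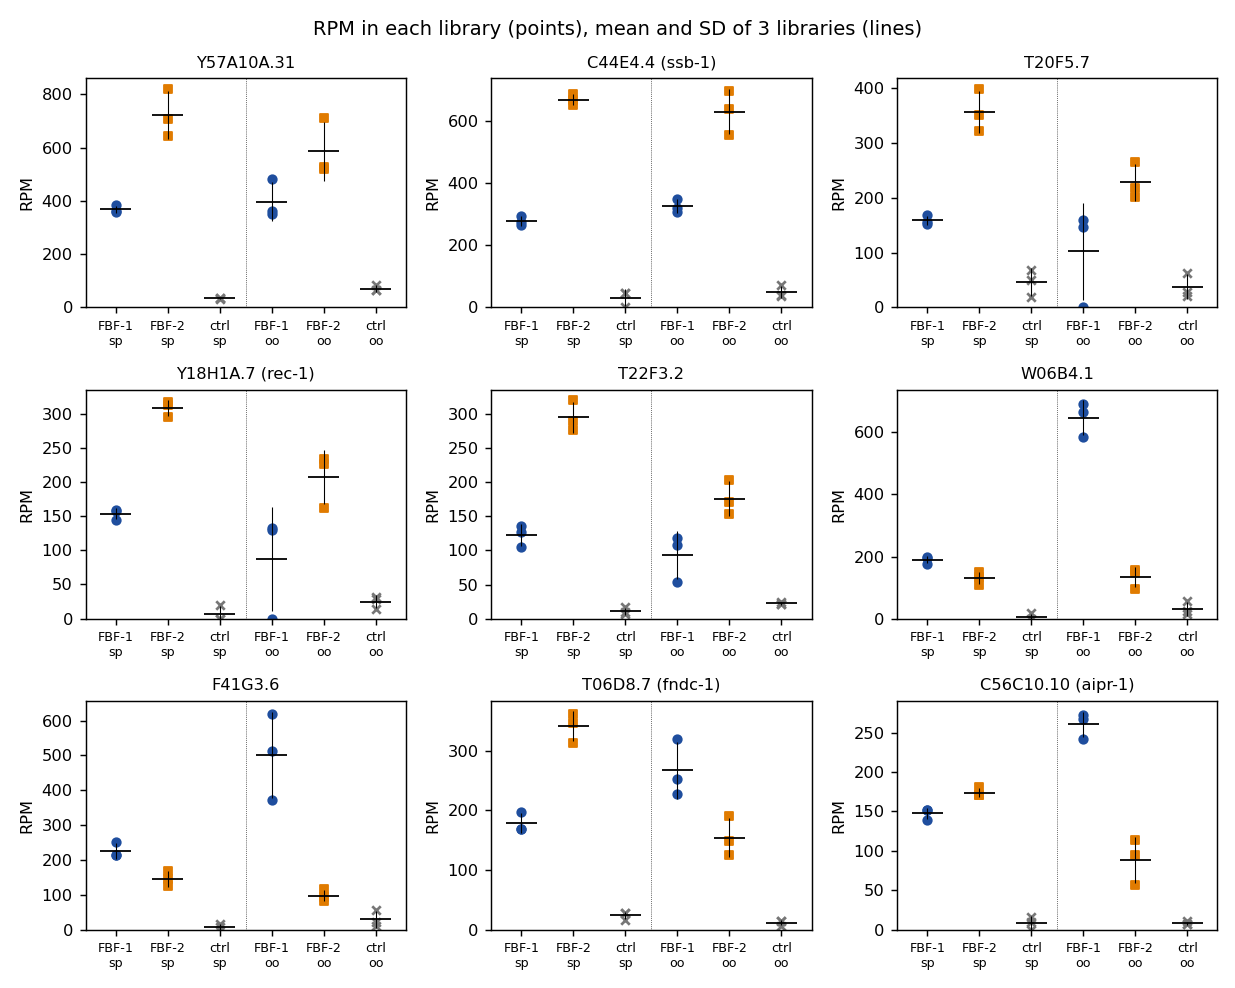
RPM in each library (points), with mean and SD of 3 libraries (lines), for the 5 RNAs lower with FBF-1 in both germlines (first 5 panels) and the 4 RNAs whose FBF-1 to FBF-2 ratio differed between germlines (last 4). In each panel, FBF-1, FBF-2 and control of spermatogenic (sp) germlines stand left of those of oogenic (oo) germlines; ssb-1 has FBF-2 at 553 to 697 RPM and FBF-1 at 265 to 350 RPM throughout.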

How the data were processed

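The deposited table holds raw counts per gene, which the authors did not normalize. By the study's methods and the labels, reads were split by barcode, mapped with STAR and collapsed by barcode, and those left were assigned to exons with HTSeq. Novoalign is also named in the submitters' processing notes. Tool versions, the genome build and the strand setting are not given in the sources used here. The 2 entries for reads on no gene (9.54% to 20.2% of a library) and ambiguous reads (0.568% to 1.93%) were left out.

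RPM are counts over a library's total on genes. Groups were taken from the titles. Names were matched to Ensembl release 115 (WBcel235), which is not the authors' mapping, and RefSeq symbols, for 24993 of 26709 genes. Tests used robust quasi-likelihood fits with TMM in edgeR 4.0.16, under R 4.3.3 with limma 3.58.1, and DESeq2 1.42.0 as an alternative. Other alternatives were other scalings, count minimums, thresholds and limits, thinned libraries, a block for the replicate number, and leaving out each library. Other values came from Python 3.11.15 (pandas 2.3.3, numpy 2.4.6, scipy 1.17.1), with plots by matplotlib 3.10.9. Tested on simulated data with 200 RNAs changed 4-fold, the fit recovered 95.5% in spermatogenic (6203 genes) and 94.5% in oogenic germlines (4737 genes). For the interaction it recovered 65.5% (5489 genes), with at most 2 false calls in any comparison. The simulation gave every gene the same spread and, apart from the changed RNAs, every library the same RNA shares. It therefore does not bear on calls that depend on the scaling or lie near 2-fold.

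RNAs named are the 12 highest; up to 5 called rises and 5 falls per germline whose libraries did not overlap, and called interactions; genes next to each limit; noncoding genes and pseudogenes; and genes with a symbol, by role. Others were named after their values were seen. The genes and lists were chosen with earlier results of these data known.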

Additional observations from a re-analysis of the deposited data

Results flagged for a closer look

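The ratio of FBF-1 to FBF-2 differed between the germlines, by a test of the difference itself, for 4 of the 158 RNAs (2.53%), against 3.99% of all RNAs tested. On the log2 scale, spermatogenic minus oogenic, the difference was -1.35 for F41G3.6, -1.25 for W06B4.1, -1.22 for aipr-1 (C56C10.10) and -1.08 for fndc-1 (T06D8.7). F41G3.6, W06B4.1 and aipr-1 kept the call under every alternative fit, at -1.82 to -1.16, -1.87 to -1.15 and -1.69 to -1.10. The call for fndc-1 was kept in all but 3. None of the 4 overlaps an exon of another gene. Spermatogenic and oogenic FBF libraries were in different lanes, so lane and germline cannot be told apart.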

How the results depend on the processing

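The number of clone-named RNAs chosen was 67 at a minimum of 200 RPM, 262 at 2 times and 61 at 8 times the control, against 158, and 142 to 173 with each library left out. At an adjusted p under 0.05 with no fold minimum, 91 were called between the proteins in spermatogenic and 85 in oogenic germlines. For the interaction 23 were called, and the share over all RNAs tested is not given at that threshold. At an adjusted p under 0.01 with no fold minimum, 71 of the 158 and 1374 of 6203 RNAs tested passed in spermatogenic germlines. In oogenic germlines 73 and 999 of 4737 passed, and for the interaction 14 and 355 of 5489. Library-size scaling called 43 in oogenic germlines and 35 for the interaction, and DESeq2 called 11 in oogenic germlines. For the interaction, no count minimum gave 7 and thinned libraries 7. With each library left out, the calls were 10 to 16 in spermatogenic germlines, 19 to 27 in oogenic germlines and 3 to 6 for the interaction. The share over all RNAs tested is not given for the count minimum, thinned, left-out or replicate block settings. Their counts only describe how the calls moved. Replicate numbers did not pair the libraries (correlations of deviations between same-numbered FBF-1 and FBF-2 libraries of -0.20 to 0.03); with the number as a replicate block 11, 26 and 4 RNAs were called. Of 565 alternative values for called RNAs, 492 kept the call, 73 lost it and 0 changed direction; 16 of 39 results kept it throughout. Depth limits the oogenic FBF-1 values most, since 1 of 3 libraries is small, and the control ratios, where 31 RNAs had at most 3 counts in all spermatogenic controls and 6 in the oogenic ones.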
